A study of Caenorhabditis elegans with 16 samples.

Results

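The genes described here are 8 genes of protein folding and stress signalling in the endoplasmic reticulum (ER) of Caenorhabditis elegans: the chaperone genes hsp-3, dnj-7, crt-1, cnx-1 and pdi-2 and the transcription factor genes xbp-1, atf-4 and atf-6. They were chosen by name, with earlier results of these data known. Each is listed in at least 1 of 2 deposited tables, which together list 3698 genes. RNA was measured by sequencing whole animals of the wild-type strain N2 in 4 groups of 4 libraries: fasted worms and fed worms after heat shock (30 min at 35°C), and fasted worms and fed worms without heat shock at 20°C. Fasted worms were moved in the middle of L4, the last larval stage, to plates without food for 24 h, and fed worms were kept on plates with the bacterium OP50. The sample labels add 24 h of recovery after the fast, whereas the study's own account of this experiment has the worms collected right after it, so the values below may belong to either state. The libraries of a group are not stated to come from separate cultures, and the p-values therefore rest on a spread among libraries that may be technical only.

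Proteins that are secreted or placed in membranes fold inside the ER, helped by chaperones, by lectins that bind their sugar chains and by enzymes that form disulphide bonds. When unfolded proteins build up there, sensors in the ER membrane start the unfolded protein response. The sensor IRE-1 starts the splicing of xbp-1 mRNA into the form that codes for the active transcription factor, the kinase PEK-1 slows translation while favouring that of atf-4, and ATF-6 is itself a membrane-bound transcription factor that is released by cleavage. Counts per gene do not show splicing, translation or cleavage, so they measure only how much mRNA of each gene the worms held.

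Each table lists only genes whose unadjusted p was under 0.05 in the authors' own comparison of fasted with fed worms. At 20°C it holds 2666 of the 14982 genes adjusted over, which is 17.8%, and after heat shock 1442 of 15456, which is 9.33%. Of the 8 genes, 7 are listed at 20°C, 2 after heat shock (xbp-1 and atf-6) and 1 in both (xbp-1); no value of a gene is used from a table that does not list it. Because the tables pick their genes by the same contrast that is tested here, the listed genes had to differ, and the counts below describe how they differed. A gene is called below where edgeR's quasi-likelihood test gave it an adjusted p under 0.05, the Benjamini-Hochberg adjustment covering the listed and the unlisted genes alike.

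The libraries held 17421344 to 21770725 reads in fasted and 17071113 to 24718844 reads in fed worms after heat shock, and 18062250 to 26398842 reads in fasted and 15859001 to 20345508 reads in fed worms at 20°C. Normalized counts (reads divided by a size factor of the library) are used below to compare a gene between libraries, and FPKM (fragments scaled by transcript length and by the reads of the library) to compare levels between genes. Of the fasted libraries after heat shock, replicate 4 had the lowest normalized counts of xbp-1 and of hsp-4, as given below. The listed genes took 18.8% of the reads of that library. They took 20.96% to 22.99% in the other 3 fasted libraries and 17.3% to 18.6% in the fed libraries.

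At 20°C, fasted worms held more mRNA of 5 of the 7 listed genes: hsp-3, crt-1, pdi-2, xbp-1 and atf-4 were called higher, with ratios of fasted to fed mean normalized counts of 1.33 to 1.91. dnj-7 was higher by a similar ratio, 1.61, without passing the test, and cnx-1 was lower, at a ratio of 0.88, also without passing. Among all listed genes, 10.8% were called higher (288 of 2666) and 62.5% were higher with or without a call. Their median was 0.65 on the log2 scale, beside 0.57 over all listed genes. In all 7 genes the fasted and the fed libraries did not overlap, which held for 52.9% of the listed genes. For each of the 7 an exact permutation test gave p = 0.029 (two-sided, the smallest value that 4 against 4 libraries allow). The genes were chosen with earlier results of these data known, so these counts describe them and nothing more.

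**Figure D1:**
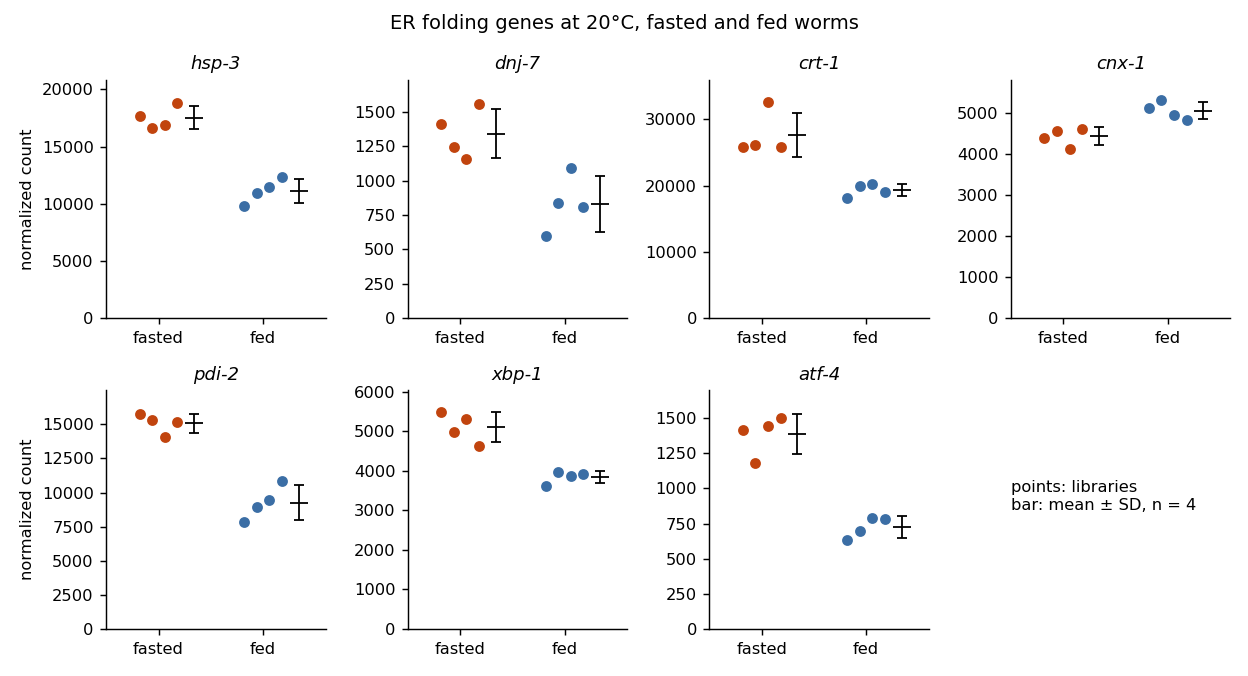
Normalized counts (y axis from 0) of the 7 listed ER genes at 20°C in the 4 fasted libraries (left, orange) and the 4 fed libraries (right, blue); bars give mean ± SD. The fasted libraries lie above all fed libraries in 6 genes and below all fed libraries in cnx-1.

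hsp-3 (C15H9.6, chromosome X, 6089028 to 6092124 on the minus strand of WBcel235) codes for BiP, the HSP70 chaperone of the ER that binds exposed hydrophobic stretches of unfolded proteins. Its normalized counts were 17671, 16626, 16872 and 18840 in fasted worms, against 9799, 10901, 11444 and 12326 in fed worms. The lowest fasted library was thus above the highest fed library by more than the SD of either group, with means of 17502 ± 997 and 11118 ± 1057 (SD, n = 4 each). The log2 fold change was 0.65 (SE 0.10, adjusted p = 0.010, edgeR), and hsp-3 kept its call whichever library was left out. Worms have a second BiP gene, hsp-4, which is not listed at 20°C; the sources do not say how reads that match both copies were assigned, so the split between the pair is uncertain.

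dnj-7 (C55B6.2, chromosome X, 7194564 to 7198279, plus strand) codes for a J-domain co-chaperone, a type of protein that hands substrates to HSP70 chaperones. Its counts were 1412, 1245, 1158 and 1558 in fasted worms, against 598, 835, 1091 and 806 in fed worms. The gap between the closest libraries was small beside the SDs (1343 ± 178 in fasted and 832 ± 202 in fed worms, n = 4 each), and the fed libraries differed among themselves by nearly as much as the group means did. The log2 fold change of 0.69 was larger than that of hsp-3 but its SE was 0.18, and the adjusted p was 0.080 in edgeR. Without fed replicate 3, its highest fed library, edgeR gave an adjusted p of 0.049, and DESeq2 on all 8 libraries gave 0.014. Without any other single library dnj-7 stayed uncalled, at adjusted p-values of up to 0.23 in edgeR. In all, 3 of 19 alternative fits called dnj-7.

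The lectin chaperones, which hold glycoproteins until they are folded, went in opposite directions. crt-1 (Y38A10A.5, chromosome V, 6098993 to 6100542, minus strand) codes for calreticulin, the soluble lectin chaperone and a store of ER calcium. Its counts were 25835, 26081, 32611 and 25892 in fasted worms, against 18212, 19896, 20304 and 19095 in fed worms. Of the fasted libraries 3 lay between 25835 and 26081 and replicate 3 stood above them, yet all 4 were above every fed library. On the log2 scale the fold change was 0.51 (SE 0.10, adjusted p = 0.036, edgeR). Leaving out fasted replicate 3 gave 0.42 with an adjusted p of 0.028 in edgeR. Leaving out any one of the other 7 libraries ended the call, at adjusted p-values of up to 0.11 in edgeR. In all, 7 of 19 alternative fits called crt-1, among them DESeq2 with an adjusted p of 0.00049.

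cnx-1 (ZK632.6, chromosome III, 9814383 to 9817137, minus strand) codes for calnexin, the membrane-bound counterpart of calreticulin. It had 4391, 4559, 4124 and 4607 normalized counts in fasted worms, against 5123, 5310, 4934 and 4828 in fed worms. The groups stood apart by less than their range within a group, and the log2 fold change was -0.19 (SE 0.087, adjusted p = 0.32, edgeR). The unadjusted edgeR p of cnx-1 was 0.052, so that it was the only one of the 7 genes that also missed this looser threshold. Both genes overlap others on the opposite strand in the Ensembl annotation of the same build, smut-1 for crt-1 and ZK632.14 for cnx-1, and cnx-1 also holds a small nucleolar RNA gene on its own strand. Since the sources do not say that strand was kept in the counting, reads of the overlapping parts cannot be told apart.

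pdi-2 (C07A12.4, chromosome X, 4524187 to 4526532, plus strand) codes for a protein disulphide isomerase, an enzyme that makes and rearranges disulphide bonds and that also serves as the beta subunit of the prolyl 4-hydroxylases that modify cuticle collagens. Its normalized counts were 15755, 15338, 14059 and 15146 in fasted worms, against 7825, 8937, 9465 and 10852 in fed worms. The fasted libraries were close together while the fed ones spread over a wider range, and the groups were well apart. Its log2 fold change was 0.70 (SE 0.11, adjusted p = 0.013, edgeR). Without fasted replicate 1 the adjusted p of pdi-2 was 0.051 in edgeR, and without any other library it stayed under the threshold.

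Of the transcription factors, atf-4 had the largest difference among the 7 genes. atf-4 (T04C10.4, chromosome X, 14809157 to 14810849, minus strand) codes for a bZIP factor that turns on genes of amino acid supply and redox balance when translation is held back. It had 1414, 1183, 1446 and 1502 normalized counts in fasted worms, against 632, 694, 793 and 781 in fed worms. Every fasted library was thus well above every fed library, with means of 1387 ± 140 and 725 ± 76.0 (SD, n = 4 each), a ratio of 1.91. Its log2 fold change was 0.94 (SE 0.13, adjusted p = 0.0050, edgeR), and atf-4 kept its call in all 19 alternative fits, with adjusted p-values of 0.0075 to 0.025 when single libraries were left out. The annotation holds a further protein-coding gene that overlaps atf-4 on the same strand, so part of its reads may belong to that gene.

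xbp-1 (R74.3, chromosome III, 4193821 to 4195321, plus strand) had the smallest difference of the called genes. Its normalized counts at 20°C were 5495, 4977, 5301 and 4642 in fasted worms, against 3622, 3965, 3867 and 3928 in fed worms. The fed libraries lay between 3622 and 3965, below every fasted library, with means of 5104 ± 375 in fasted and 3846 ± 155 in fed worms (SD, n = 4 each). The log2 fold change of xbp-1 was 0.41 (SE 0.092, adjusted p = 0.048, edgeR). This call was at the threshold: with the replicate number as a block the adjusted edgeR p was 0.057, and leaving out any single library gave 0.063 to 0.17, while the log2 fold change stayed between 0.37 and 0.45. In all, 4 of 20 alternative fits called xbp-1, among them DESeq2 with an adjusted p of 0.00062. The third factor, atf-6, is not listed at 20°C.

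Per transcript length, crt-1 had the highest level of the 7 genes, with 1002 ± 151 FPKM in fasted and 713 ± 38.5 FPKM in fed worms at 20°C (SD, n = 4 each). pdi-2 followed with 413 ± 11.2 FPKM in fasted and 257 ± 29.6 FPKM in fed worms, and hsp-3 with 333 ± 14.8 and 215 ± 16.5 FPKM in fasted and fed worms. xbp-1 had 182 ± 15.97 FPKM in fasted and 139 ± 5.75 FPKM in fed worms, above cnx-1 with 106 ± 3.03 FPKM in fasted and 124 ± 7.96 FPKM in fed worms. The lowest levels were those of atf-4, with 65.9 ± 6.99 FPKM in fasted and 35.0 ± 3.14 FPKM in fed worms, and of dnj-7, with 35.1 ± 3.87 FPKM in fasted and 22.1 ± 5.30 FPKM in fed worms. The order of the mean FPKM was the same in both groups, and neighbours in it did not overlap in any library except pdi-2 and hsp-3 in fed worms.

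How the reads were scaled bears on the size of these differences. With scaling factors computed from the listed genes alone, the median log2 fold change of all listed genes moved by -0.19 (TMM) or by -0.39 (DESeq2 size factors), because these factors balance a table in which most genes are higher in fasted worms. Relative to the median of all listed genes, atf-4 was above it by 0.37, 0.37 and 0.36 on the log2 scale under the authors' factors, TMM and DESeq2 size factors. On the same scale pdi-2 was above the median by 0.14 and hsp-3 by 0.09 under each of the 3 scalings. crt-1 lay just under it, at -0.06 under each scaling, and xbp-1 further under it, at -0.16 under each. No gene of the 7 changed direction, but only atf-4 was still called under either scaling, beside 5.85% of all listed genes called higher with TMM and 5.36% with the DESeq2 size factors, and the log2 fold change of xbp-1 under the DESeq2 size factors of the listed genes was 0.01.

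**Figure D2:**
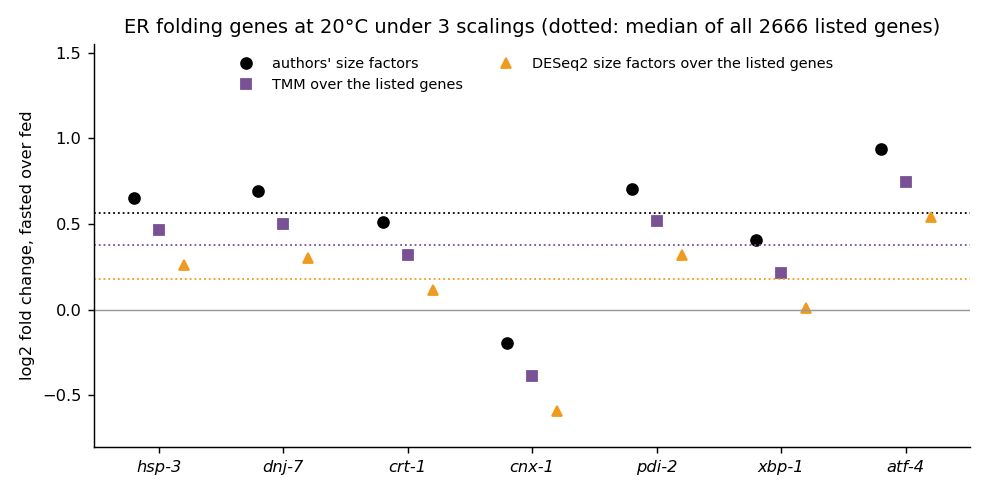
Log2 fold change of fasted over fed worms at 20°C (y axis) of the 7 listed ER genes under 3 scalings: the authors' size factors (circles), TMM on the listed genes (squares) and DESeq2 size factors on the listed genes (triangles); each dotted line is the median of the 2666 listed genes under the scaling of its colour. atf-4 lies above and xbp-1 below that median under all 3, and cnx-1 is below 0 under all 3.

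Beyond the 8 genes, 59 other genes of the ER folding and secretion pathway were looked up in 8 lists by role. Together with the 8 genes they make 67, of which 23 (34.3%) are listed at 20°C, 21 of them higher and 2 lower in fasted worms, and 8 called, all higher. Of all genes adjusted over, 17.8% are listed at 20°C. Among all listed genes 62.5% were higher in fasted worms and 10.8% were called higher. Of the 59 others, 16 (27.1%) are listed, 15 higher and 1 lower, with a median log2 fold change of 0.51, and 3 were called: let-268, trap-2 and pdi-6. The median of all listed genes was 0.57, and the lists were drawn up with results of these data known, so the counts describe the lists and nothing more. In a fit blocked by replicate number, edgeR called 12 of the 23, all higher, while it called 20.7% of all listed genes higher (553 of 2666). That fit added C14B9.2, fkb-3, fkb-5, emo-1 and trap-1 at adjusted p-values of 0.037 to 0.049 and lost xbp-1.

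Among the disulphide isomerases and their oxidase, 4 of 7 genes are listed. pdi-6, a further protein disulphide isomerase, moved much like pdi-2, with 6728, 6312, 8150 and 7272 normalized counts in fasted worms, against 3889, 4211, 4848 and 4657 in fed worms. Its groups did not overlap, and its log2 fold change was 0.69 (SE 0.11, adjusted p = 0.014, edgeR). pdi-6 lost its call when fasted replicate 4 or fed replicate 1 or 2 was left out, at adjusted p-values of up to 0.055 in edgeR. C14B9.2 had a log2 fold change of 0.54 and ZK973.11, both of the same enzyme family, one of -0.23, neither past the test. ZK973.11 and cnx-1 were thus the 2 ER genes that were lower in fasted worms.

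Of the prolyl hydroxylase and collagen folding enzymes, 6 of 9 are listed, all higher in fasted worms. let-268, the procollagen lysyl hydroxylase, had 218, 214, 260 and 316 normalized counts in fasted worms, against 115, 116, 130 and 157 in fed worms. Its log2 fold change was 0.95 (SE 0.19, adjusted p = 0.032, edgeR), the largest of the 23. The prolyl 4-hydroxylase alpha subunit genes dpy-18 and phy-2, whose products pair with PDI-2, had log2 fold changes of 0.37 and 0.62 without a call, and the proline isomerase genes cyn-5, fkb-3 and fkb-5 had 0.51, 0.67 and 0.69, also without a call. let-268 kept its call without fasted replicate 2 or fed replicate 4 and lost it without any one of the other 6 libraries, at adjusted p-values of up to 0.11 in edgeR.

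The translocon, through which new proteins enter the ER, and the signal peptidase have 5 of 11 genes listed, all higher. trap-2, a subunit of the translocon-associated complex, had 4296, 5022, 5758 and 4602 normalized counts in fasted worms, against 2272, 2801, 2999 and 3465 in fed worms. The groups were apart, with a log2 fold change of 0.77 (SE 0.14, adjusted p = 0.022, edgeR), and trap-2 kept its call without fed replicate 4 and lost it without any other single library, at adjusted p-values of up to 0.064. trap-1, trap-3, sec-61.B and emo-1 had log2 fold changes of 0.44 to 0.49 and were not called.

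The ER HSP70, HSP90 and J-domain chaperones have 4 of 10 genes listed, among them hsp-3 as the only one called; the HSP70-related T14G8.3 had a log2 fold change of 0.50 and the J-domain gene dnj-28 one of 0.25. Of the lectin chaperones and glycoprotein quality control genes 2 of 4 are listed, crt-1 and cnx-1, and of the stress sensors and transcription factors 2 of 7, xbp-1 and atf-4. None of the 5 oligosaccharyltransferase genes, which attach sugar chains, and none of the 14 genes of ER-associated degradation, which removes proteins that fail to fold, is listed at 20°C. An unlisted gene had an unadjusted p of 0.05 or more, or none, in the authors' comparison, and its level was not analysed here.

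**Figure D3:**
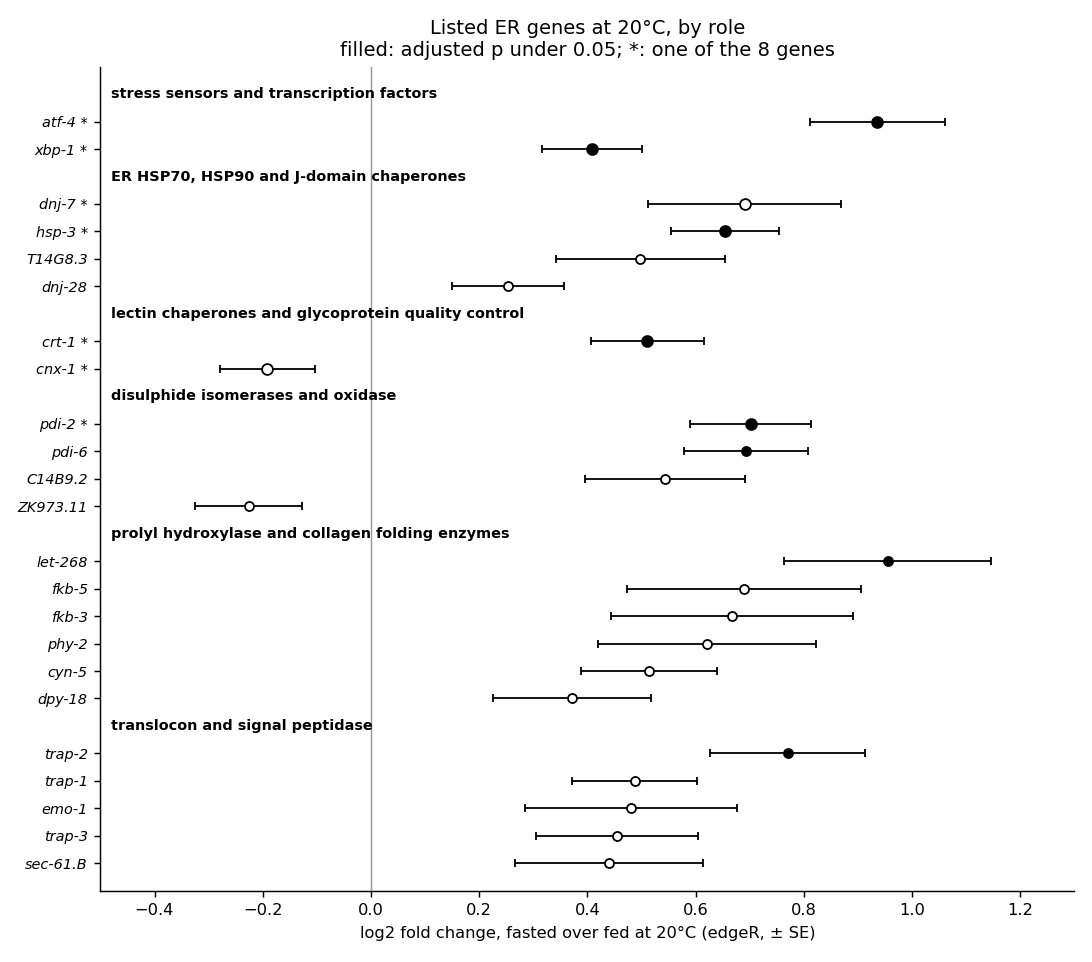
Log2 fold change (x axis, edgeR, ± SE) of fasted over fed worms at 20°C for the 23 listed genes of the ER lists, grouped by role, n = 4 libraries per group; filled circles have an adjusted p under 0.05 and stars mark those of the 8 chosen genes that are listed. All circles lie right of 0 except cnx-1 and ZK973.11, and atf-4 and let-268 lie farthest right.

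Whole worms hold many tissues, and fewer cells of a type and less RNA per cell cannot be told apart in these libraries. Markers of several tissues also differed between the groups at 20°C. All 7 of 7 body wall muscle markers are listed and were higher in fasted worms, 3 of them called, with a summed level of 1023 to 1381 FPKM in fasted and 618 to 977 FPKM in fed worms. Of 6 yolk protein genes, which the intestine of adults expresses, 4 are listed and all 4 were called lower, with summed levels of 3070 to 3442 FPKM in fasted and 5737 to 7229 FPKM in fed worms. Of 8 hypodermis and seam markers 5 are listed, with col-19 and elt-3 called higher and dpy-7 and wrt-2 lower without a call. The 5 markers summed to 389 to 598 FPKM in fasted and 114 to 217 FPKM in fed worms. Most of this sum was col-19, at 467 FPKM in fasted and 146 FPKM in fed worms. The 8 intestine markers went both ways: 4 are listed, with ifb-2 and act-5 called higher and cpr-6 lower in every fasted library (log2 fold change -0.49, not called). cpr-6, at 680 FPKM in fasted and 969 FPKM in fed worms, made up most of their sum of 1003 to 1344 FPKM in fasted and 1160 to 1293 FPKM in fed worms. Of 7 neuron markers 2 are listed without a call (36.7 to 110 FPKM in fasted and 26.5 to 44.8 FPKM in fed worms). The oocyte and germline list has 1 of 10 genes listed, at 381 to 494 FPKM in fasted and 476 to 612 FPKM in fed worms, and the sperm list 0 of 9. The part of these tissue differences in the ER genes was not tested.

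Transcript length also moved with direction in the tables. With the listed genes at 20°C split into 10 groups by length, 47.9% of the genes in the group that holds hsp-3 were higher in fasted worms, 47.0% in the group of cnx-1, 55.8% in that of dnj-7 and pdi-2, 63.3% in that of xbp-1 and crt-1, and 65.9% in that of atf-4. The part of length in the differences was not tested.

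After heat shock, fasted worms showed more xbp-1 and less atf-6 mRNA than fed worms on average, and neither difference passed the test. Of the 2 listed genes 0 were called by edgeR, by DESeq2 or by limma, and 1 (xbp-1) had an unadjusted edgeR p under 0.05. Among all 1442 listed genes edgeR called 0.00% (0 genes) and 78.5% had an unadjusted p under 0.05, while DESeq2 called 3.54% (51 genes) and limma on log2(FPKM + 1) called 1 gene.

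xbp-1 had 6160, 6870, 7916 and 4689 normalized counts in fasted worms after heat shock, against 4202, 4347, 4649 and 5158 in fed worms. Of the fasted libraries 3 were above every fed library and replicate 4 lay among the fed ones, so that the groups overlapped; 35.0% of the listed genes had groups that did not overlap. The means were 6409 ± 1355 in fasted and 4589 ± 422 in fed worms (SD, n = 4 each), a ratio of 1.40, and the exact permutation test gave p = 0.057. The log2 fold change was 0.48 (SE 0.14, adjusted p = 0.51, edgeR). Without fasted replicate 4 it was 0.61 with an adjusted p of 0.083 in edgeR. That was the smallest adjusted p of the 8 fits that each left out 1 library. Over these fits the log2 fold change ran from 0.36 to 0.61, and 0 of them called xbp-1. Scaling by the listed genes moved the median of all listed genes after heat shock by -0.13 on the log2 scale, with TMM and with DESeq2 size factors, and under each of them the log2 fold change of xbp-1 was 0.34. Among the listed genes of its length group, 38.9% were higher in fasted worms.

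atf-6 (F45E6.2, chromosome X, 12480948 to 12484879, plus strand) had 284, 227, 227 and 240 normalized counts in fasted worms, against 303, 303, 307 and 275 in fed worms. Fasted replicate 1 was above fed replicate 4 and the other 3 fasted libraries were below all fed libraries. The means were 245 ± 26.9 in fasted and 297 ± 14.7 in fed worms (SD, n = 4 each), with an exact permutation p of 0.057, and the log2 fold change of atf-6 was -0.28 (SE 0.14, adjusted p = 0.81, edgeR). Its level was low, 5.37 ± 0.573 FPKM in fasted and 6.60 ± 0.379 FPKM in fed worms (n = 4 each), against 233 ± 47.8 and 170 ± 18.7 FPKM of xbp-1 in fasted and fed worms. Of the listed genes in the length group of atf-6, 22.9% were higher in fasted worms.

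**Figure D4:**
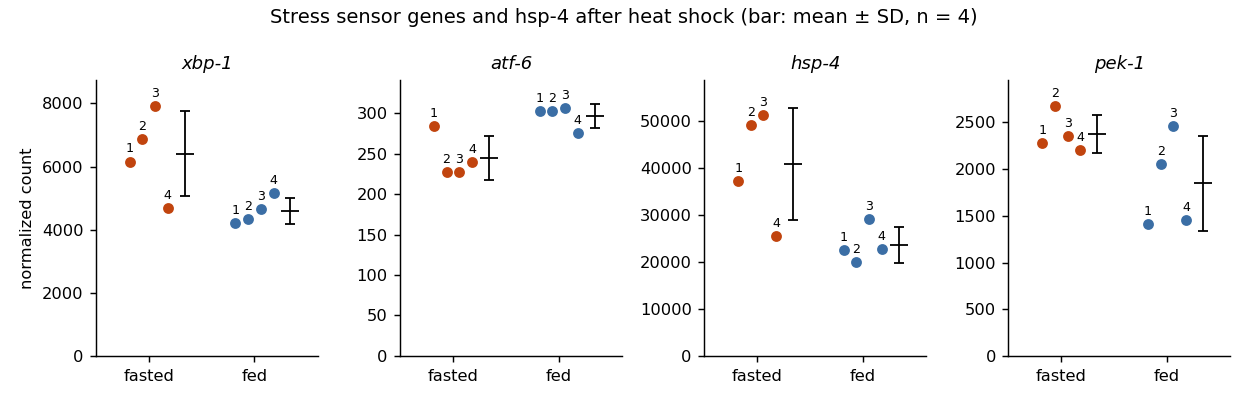
Normalized counts (y axis from 0) of xbp-1, atf-6, hsp-4 and pek-1 after heat shock in the 4 fasted libraries (left, orange) and the 4 fed libraries (right, blue), numbered by replicate; bars give mean ± SD. Fasted replicate 4 lies among or near the fed libraries in xbp-1 and hsp-4, and no gene has groups that stand fully apart.

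Of the 67 ER genes, 6 (8.96%) are listed after heat shock, 5 higher and 1 lower in fasted worms, and 0 were called by edgeR, DESeq2 or limma, while 4 had an unadjusted edgeR p under 0.05. Each of the chosen genes is listed in at least 1 table, so the share of the 67 is partly fixed by that choice. Without the chosen genes, 4 of 59 (6.78%) are listed after heat shock, 4 higher and 0 lower in fasted worms. Of all genes adjusted over, 9.33% are listed after heat shock, and 53.4% of all listed genes were higher in fasted worms. The lists were drawn up with results of these data known, so these counts describe the lists and nothing more. The list of stress sensors and transcription factors has 3 of 7 genes listed: xbp-1, atf-6 and pek-1, the kinase that acts upstream of atf-4. pek-1 had 2285, 2672, 2359 and 2209 normalized counts in fasted worms, against 1414, 2055, 2465 and 1456 in fed worms. The groups overlapped, with a log2 fold change of 0.37 (SE 0.17, adjusted p = 0.70, edgeR).

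hsp-4, the BiP gene whose induction is widely used as the readout of the xbp-1 branch, is the only ER chaperone gene of its list (1 of 10) listed after heat shock. It had 37252, 49136, 51292 and 25495 normalized counts in fasted worms, against 22575, 19953, 29117 and 22775 in fed worms. As in xbp-1, fasted replicate 4 lay within the range of the fed libraries and the other 3 fasted libraries were above all of them. The log2 fold change was 0.79 (SE 0.21, adjusted p = 0.48, edgeR) with an exact permutation p of 0.057, and without fasted replicate 4 it was 0.96 with an adjusted p of 0.083 in edgeR. That too was the smallest adjusted p of the 8 fits that each left out 1 library. Over these fits the log2 fold change ran from 0.66 to 0.96, and 0 of them called hsp-4. cyn-5 and sec-61.B had log2 fold changes of 0.47 and 0.33, at adjusted p-values of 0.51 and 0.58 in edgeR, and are the only members of the collagen folding list (1 of 9) and of the translocon and signal peptidase list (1 of 11) in this table. The lectin, disulphide isomerase, oligosaccharyltransferase and degradation lists had 0 genes listed after heat shock.

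Of the tissue markers after heat shock, 1 of 7 muscle markers (323 to 474 FPKM in fasted and 221 to 410 FPKM in fed worms), 4 of 8 hypodermis and seam markers (169 to 724 FPKM in fasted and 126 to 408 FPKM in fed worms), 3 of 7 neuron markers (62.5 to 118 FPKM in fasted and 38.8 to 84.8 FPKM in fed worms) and 1 of 9 sperm markers (1.24 to 2.54 FPKM in fasted and 1.58 to 5.55 FPKM in fed worms) are listed, and none was called. In the hypodermis and seam list col-19 made up nearly all of the sum, at 489 FPKM in fasted and 213 FPKM in fed worms, while the other 3 markers had log2 fold changes of -1.92 (sqt-3), -2.66 (dpy-7) and -2.10 (wrt-2). The yolk, intestine, and oocyte and germline lists had 0 genes listed there. Their part in the values of the ER genes was not tested.

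xbp-1 is the only one of the 8 genes listed at both temperatures, and its levels can therefore be set side by side in all 4 groups as CPM, its counts scaled to the reads of each library. After heat shock they were 334 ± 68.5 in fasted and 243 ± 26.8 in fed worms, and at 20°C 261 ± 22.9 in fasted and 200 ± 8.24 in fed worms (SD, n = 4 each). The order of the means was thus fasted after heat shock, fasted at 20°C, fed after heat shock and fed at 20°C. The neighbours in this order overlapped in single libraries, except fed worms after heat shock and fed worms at 20°C, whose closest libraries were 211 and 210.

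The difference of the fasting effect on xbp-1 between the temperatures, heat shock minus 20°C, was 0.07 on the log2 scale (SE 0.19, adjusted p = 0.998 over the 410 genes in both tables, edgeR). Of these 410 genes 4.63% had a difference that passed. Each of the 410 had an unadjusted p under 0.05 for fasting at both temperatures in the authors' comparison. The fasting effect had the same direction at both temperatures in 380 of them. Genes listed only at 20°C or only after heat shock were left out beforehand, so the 4.63% describes the 410 genes alone. No difference was detected for xbp-1. Because xbp-1 was picked in the same way, this test cannot decide whether fasting acted on it alike at both temperatures. The SE also leaves room for a difference of the size of the fasting effect itself at 20°C. Worms after heat shock over worms at 20°C had a ratio of 1.28 in fasted worms (log2 fold change 0.36, SE 0.14, adjusted p = 0.089, edgeR) and 1.22 in fed worms (log2 fold change 0.28, SE 0.14, adjusted p = 0.27, edgeR). The tables were normalized separately, and these comparisons between them use the library reads alone.

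**Figure D5:**
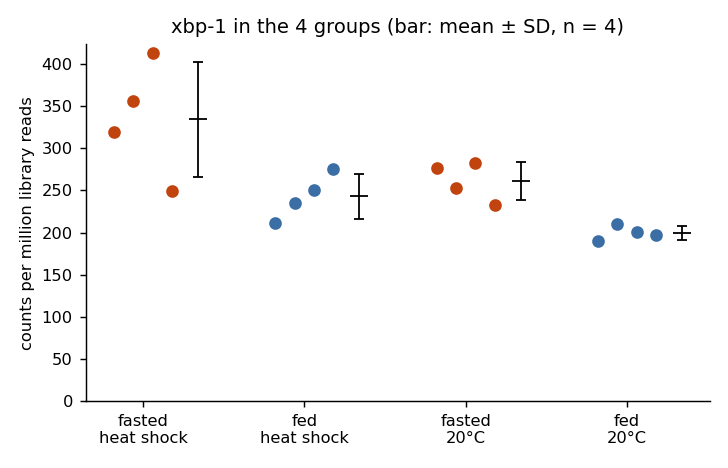
CPM of xbp-1, counts scaled to the reads of each library (y axis from 0), in fasted and fed worms after heat shock and in fasted and fed worms at 20°C, 4 libraries each; bars give mean ± SD. The fasted libraries after heat shock spread widest, and the fed libraries at 20°C lie lowest.

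The genes whose log2 normalized counts ran most like those of hsp-3 over the 8 libraries at 20°C were spig-17 (Pearson r = 0.99), unc-87 (r = 0.99), a thin filament protein of muscle, and cle-1 (r = 0.99), a collagen of basement membranes, of 1864 listed genes with a mean of at least 50. For xbp-1 they were bbln-1 (r = 0.98), ucr-2.2 (r = 0.97), a subunit of the respiratory chain, and dnj-28 (r = 0.97). After heat shock nhr-3 (r = 0.99), W04C9.2 (r = 0.97) and Y54G2A.40 (r = 0.97) ran most like xbp-1, of 991 genes. These correlations describe 8 libraries that fall into 2 groups, fasted and fed, and no correlation within the groups was computed.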

How the data were processed

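Whole worms were measured by RNA sequencing in 16 libraries. Per the labels, the authors used HISAT2 2.0.5 with the build WBcel235 for alignment and featureCounts 1.5.0-p3 for counting; the use of strand is not stated. The deposited raw counts are whole reads per gene. The deposited normalized counts are a signal: the authors' raw counts over the DESeq2 size factor of each library. The deposited FPKM values relate the authors' counts to gene length and library reads. The deposited p-values and fold changes of the authors' own DESeq2 comparison were not used, except that the p-values served to find the listing threshold and the number of genes adjusted over; the deposited group means were not used. The 2 tables list genes with a largest unadjusted p of 0.0500 (20°C) and 0.0497 (heat shock).

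Library reads were recovered from count, FPKM and length. The listed genes' raw counts were tested with edgeR 4.0.16 (quasi-likelihood, R 4.3.3) using the authors' size factors, with p-values adjusted over 14982 (20°C) or 15456 (heat shock) genes, unlisted genes counting as p = 1. The spread among libraries was estimated from the listed genes alone, which the same contrast had picked, so the edgeR p-values may be too small. Single genes were compared by exact permutation tests (scipy 1.17.1). The alternatives tried were limma 3.58.1 on log2(FPKM + 1) or log2(FPKM + 0.1), DESeq2 1.42.0, other scalings, a minimum mean of 10 counts, adjustment over the listed genes alone, a fit blocked by replicate number, 1 fit of all 4 groups and each library left out; the edgeR 4 method and a robust fit were added after seeing the data. The main edgeR fit alone was also run on simulated counts, adjusted there over the listed genes only, and its outcome is not given here.

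The 8 genes and all gene lists were chosen with earlier results of these data known. Named are each of the 8 genes in each table that lists it, other genes of the ER lists that were called or else up to 3 per list and table with the smallest p, and the 3 genes most like hsp-3 and xbp-1; the remaining listed ER genes were added so that all are accounted for. Same-numbered libraries at 20°C deviated together from their group means (r = 0.18, 0.14, 0.36 and 0.12 over 2459 genes), each above 0.1, so the block is given where it changes a call; this pairing comes from the data, as the labels only number the libraries, and fasted replicate 2 correlated better with fed replicate 1 (0.31). After heat shock the values were 0.30, 0.087, 0.31 and 0.34 over 1277 genes, of which 0.087 is under 0.1. The cut of 0.1 was not tested, so whether the libraries are paired is not known at either temperature. Coordinates are those of the deposited tables, and ends in the Ensembl annotation differ by up to 39 bases.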

Additional observations from a re-analysis of the deposited data

Results flagged for a closer look

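Of 18 groups of 4 libraries looked at, 2 held a library far from the others by Dixon's test, where chance gives about 1 in 20 groups. crt-1 had 32611 normalized counts in fasted replicate 3 at 20°C, against 25835 to 26081 in the other fasted libraries. atf-6 had 275 normalized counts in fed replicate 4 after heat shock, against 303 to 307 in the other fed libraries.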

How the results depend on the processing

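With 4 libraries per group, the call of xbp-1 at 20°C rests on each of the 8 libraries and that of crt-1 on each but fasted replicate 3. At 20°C, 5 of the 8 chosen genes, 8 ER genes and 368 of all 2666 listed genes were called. DESeq2 called 6 of the 8, 12 ER genes and 874 listed genes. limma called 3 of the 8 with either pseudocount (375 listed genes with 1, 344 with 0.1), and 4 ER genes with 0.1. TMM over the listed genes left 1 of the 8 and 1 ER gene (156 listed genes higher, 153 lower), DESeq2 size factors over the listed genes 1 of the 8 and 2 ER genes, 1 higher and 1 lower, ZK973.11 (143 listed genes higher, 603 lower), and library reads alone 3 of the 8 (372 listed genes). All 4 groups in 1 fit, which can hold only genes in both tables, left 0 of 1 and 0 of 3 (2 of 410 listed genes). Leaving out 1 library gave 2 to 4 of the 8, 3 to 8 ER genes and 107 to 471 listed genes, with the lowest of each without fasted replicate 1. Adjusting over the listed genes alone called 21 ER genes and 2179 listed genes at 20°C, and 1 of the 8, 3 ER genes and 470 of 1442 listed genes after heat shock, where the other alternatives called 0 ER genes. With DESeq2 size factors over the listed genes dnj-28 (-0.14) and dpy-18 (-0.017) changed direction on the log2 scale. The difference of the fasting effect on xbp-1 between temperatures ran from -0.043 (without fasted heat shock replicate 3) to 0.19 (without fasted heat shock replicate 4). In the fit blocked by replicate number, 4 of the 8, 12 ER genes and 686 listed genes were called at 20°C and 0 after heat shock; it changed no other call of an ER gene than those named beside the results. At each temperature 3 of the 4 fasted libraries correlated best with their own number; the exceptions were fasted replicate 2 at 20°C, at 0.31 with fed replicate 1 and 0.14 with its own number, and fasted replicate 2 after heat shock, at 0.22 with fed replicate 4 and 0.087 with its own number. The cause of these changes was not tested.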
